A study of Mus musculus with 13 samples.

Results

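Megakaryocytes are the large bone marrow cells that shed platelets into the blood, and the genes described here are 9 genes known for their work in these cells and in platelets. They are Itga2b, Pf4, Gp9, Gp1bb, Gp5, Vwf, Treml1, Cavin2 and Trpc6. They were looked up by name in the table of raw counts, after its Ensembl identifiers had been matched to GENCODE M21 symbols, and all 9 were found among the 54838 gene identifiers of the table.

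The counts come from RNA of Lin- cKit+ bone marrow cells, a sorted fraction rich in hematopoietic stem and progenitor cells (HSPCs), with 50000 cells taken from each of 13 C57BL/6J mice. All mice carried Mx1-Cre, a recombinase gene that interferon induces and whose activity is not limited to blood cells. The 3 control mice had no other engineered allele. The 3 p53mut mice also carried p53 R172H/+, and the 3 NrasG12D mice carried a mutant Nras allele, which their titles name NrasG12D and their genotype entries spell Nras G21D/+. The 4 NPmut mice carried both p53 R172H/+ and Nras G12D/+. Mice of the control, p53mut and NrasG12D groups were given 3 injections of 100 µg pI-pC, an RNA that induces interferon, from about 6 weeks of age. The NPmut mice were given none and were moribund when their cells were taken. Their age at that point is not given in the sources used, which describe the other groups as age matched. Genotype, injection and stage of disease can therefore not be told apart in any comparison of NPmut with another group.

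Platelets stick to a damaged vessel wall through the glycoprotein Ib-IX-V complex, which binds von Willebrand factor, and they bind each other through the integrin αIIbβ3, which binds fibrinogen. Their alpha granules release chemokines and clotting proteins when the platelet is activated. Transcripts of several of these proteins are also found in hematopoietic stem cells and in progenitors that lean toward megakaryocytes, so that a sorted fraction without mature cells can still contain them.

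Between 12576174 (NPmut mouse 4) and 29124022 (NPmut mouse 2) reads were counted per mouse. Control totals were 16891496, 16016795 and 18383281, p53mut totals 13357504, 13637926 and 16712599, NrasG12D totals 17065410, 15445138 and 15179592, and the totals of NPmut mice 1 and 3 were 19970810 and 18659754. Levels that compare mice are given as CPM, the share of a gene in the counts of its library after scaling by a TMM factor. Levels of the members are compared with each other only as RPKM, which also divides by exonic length. Other genes are set beside each other by CPM, without a correction for length, also where the most abundant of a list is named. A gene is called when its adjusted p in edgeR is under 0.05 and its log2 fold change is at least 1 in size. Of the 9 members, 8 passed the filter on low counts, and Gp1bb was not tested.

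The label of the sorted fraction was checked against 5 markers of HSPCs. Kit is the only one of them whose product was used for the sort. By CPM it was the most abundant of them. Its mean was 540 CPM in control, 587 in p53mut, 574 in NrasG12D and 372 in NPmut libraries. Of the platelet genes outside the 9 members, 4 examples with low counts are given here, chosen after their values were seen, while others such as Gp1ba (10.1 to 12.1 CPM in control mice) were higher. Ppbp, a platelet chemokine gene, was at 0.0575 to 0.408 CPM in control mice, and Gp6, which encodes a collagen receptor, at 0 to 0.23. Tubb1, the platelet β-tubulin gene, was at 0.204 to 0.68 CPM in control mice, and Clec1b, the gene for the podoplanin receptor CLEC-2, at 0.23 to 0.815.

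In control mice, the members ranked by RPKM were led by Pf4 at 29.3 ± 8.59 (SD, n = 3) and Itga2b at 16.4 ± 4.09 (SD, n = 3), and the ranges of these members did not overlap each other or those of the next. Below them came Gp5 (5.51 RPKM), Cavin2 (4.56), Gp9 (4.22), Trpc6 (3.07), Vwf (2.3) and Treml1 (1.82), and each of these overlapped its neighbour in the order. Gp1bb was last at 0.00997 RPKM. In p53mut and NrasG12D mice, Pf4 (35.3 and 44 RPKM) and Itga2b (19.2 and 18.6 RPKM) led in the same way. In NPmut mice the order began with Itga2b (3.97 ± 3.25 RPKM, SD, n = 4) and Pf4 (3.9 ± 2.54), which overlapped, and each further tested member overlapped the next.

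**Figure D1:**
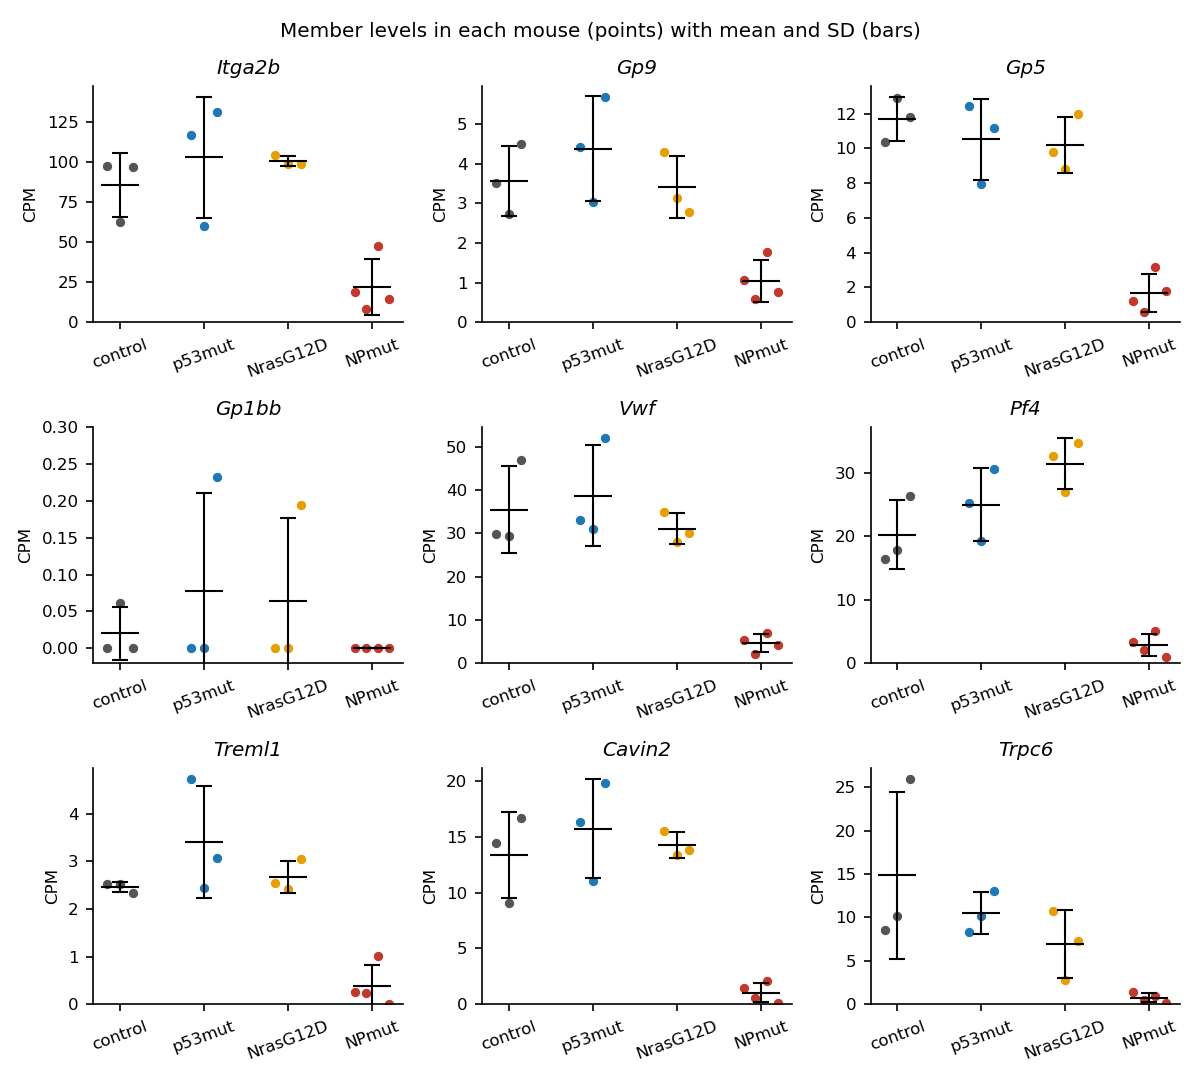
CPM of each member in each mouse (points, 3 control, 3 p53mut, 3 NrasG12D and 4 NPmut mice), with mean and SD as bars. For the 8 tested members the NPmut points lie below those of the 9 other mice, while Gp1bb has at most 4 counts in any mouse.

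The glycoprotein Ib-IX-V complex and its ligand were lower in NPmut HSPCs than in control HSPCs. Gp9, Gp5 and Vwf, the 3 members of this group that could be tested, all fell, to 29.2%, 14.4% and 13.2% of the control mean in CPM. Every NPmut mouse was below every control mouse for each of them. In bulk RNA, fewer cells of a type and less RNA per cell cannot be told apart.

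Gp9 (ENSMUSG00000030054; GRCm38 chromosome 6, 87778072 to 87779768) encodes glycoprotein IX, which the complex needs to reach the cell surface. Its level was 3.51, 2.72 and 4.49 CPM in control mice and 1.06, 0.579, 1.77 and 0.763 CPM in NPmut mice, which rest on 44 to 88 and on 9 to 33 counts. All NPmut mice were low, and the highest of them, NPmut mouse 3, stayed under the lowest control mouse. In the test, the log2 fold change was −1.77 (SE 0.37, 95% CI −2.57 to −0.97, adjusted p = 0.00771). Without control mouse 3 the log2 fold change was −1.57 and the adjusted p 0.05002, so that the call was lost, and over the 14 alternative settings the adjusted p ran from 0.000215 to 0.0957.

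Gp5 (ENSMUSG00000047953; chromosome 16, 30307685 to 30310779) encodes glycoprotein V, a part of the complex that thrombin can cleave. It was at 10.4, 12.9 and 11.8 CPM in control mice, a narrow range, and at 1.21, 0.579, 3.16 and 1.78 CPM in NPmut mice. The groups were far apart, and NPmut mouse 3 was again the highest of its group. Its log2 fold change of −2.82 was called (SE 0.38, 95% CI −3.63 to −2.01, adjusted p = 0.00053). With reads on receptor genes as a covariate it was not called (−2.51, adjusted p = 0.0527), the only loss among its 15 alternative settings, and its adjusted p over them ran from 1.73e-21 to 0.0527.

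Vwf (ENSMUSG00000001930; chromosome 6, 125546774 to 125686679) encodes von Willebrand factor, which tethers platelets to exposed collagen. Control mice had 29.9, 29.5 and 47.1 CPM, and NPmut mice had 5.41, 2.2, 6.97 and 4.16 CPM. Control mouse 3 was the highest of the control mice, and the groups did not overlap. Vwf had a log2 fold change of −2.93 (SE 0.31, 95% CI −3.6 to −2.26, adjusted p = 0.000155) and was called in all 15 alternative settings.

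Gp1bb (ENSMUSG00000050761; chromosome 16, 18620317 to 18622403), the gene of glycoprotein Ib beta, gave no usable level. It had 1 count in the control libraries together, 4 in p53mut, 3 in NrasG12D and 0 in NPmut libraries. A count of 0 among the 80330760 counts of the NPmut group allows a level of up to 0.0373 CPM, so that no difference was detectable at this depth. This limit covers counting error only. On the annotation, 91.1% of its exonic bases are shared with Sept5 (75 counts over all libraries) and 41.5% with Gm49601 (34 counts), both on the same strand, and how reads in such bases were assigned is not known.

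The stretches around the starts of the genes were searched, on both strands, for words of 6 letters that are known motifs of the GATA, ETS and RUNX families of transcription factors. Promoters were found for 8 of the 9 members, and not for Vwf. A GATA word is in 3 of these 8 windows (Pf4, Gp1bb and Gp5, the last with 3 matches) and in 29.8% of the 32851 promoters of this length. By word, AGATAA is in 11.2%, AGATAG in 8.95%, TGATAA in 9.05% and TGATAG in 7.29% of all promoters. An ETS word is in 4 of the 8 windows (Itga2b, Pf4, Treml1 and Cavin2) and in 41.4% of all promoters, CAGGAA in 30.6% and CCGGAA in 14.9%. The RUNX word TGTGGT is in 1 of the 8 windows (Gp9) and in 16.8% of all promoters. These matches describe letters in a window and say nothing about binding.

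The windows around the starts of Gp5 and Gp9 are shown because both genes encode parts of a single receptor and fell together, yet their windows hold different motif words. Capitals mark the words matched on either strand, so that a match on the opposite strand appears as its reverse complement. Each window runs from 250 bases before to 50 bases after the start, on the strand of the gene, from the RefSeq promoters of GRCm38.p6. The Gp5 window is chr16:30310732-30311031 on the minus strand and the Gp9 window chr6:87777820-87778119 on the plus strand.
Gp5: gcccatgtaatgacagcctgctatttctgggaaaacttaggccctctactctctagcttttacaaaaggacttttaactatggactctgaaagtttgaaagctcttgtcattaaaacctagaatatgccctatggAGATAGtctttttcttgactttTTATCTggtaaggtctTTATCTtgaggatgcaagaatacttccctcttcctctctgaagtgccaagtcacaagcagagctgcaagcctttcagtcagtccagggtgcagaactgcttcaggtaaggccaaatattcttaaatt
Gp9: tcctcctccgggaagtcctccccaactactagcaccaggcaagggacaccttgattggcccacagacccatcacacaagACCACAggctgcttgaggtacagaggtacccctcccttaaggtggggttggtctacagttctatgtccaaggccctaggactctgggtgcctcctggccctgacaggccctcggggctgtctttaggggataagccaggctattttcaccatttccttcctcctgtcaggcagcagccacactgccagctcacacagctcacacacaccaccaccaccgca

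Itga2b (ENSMUSG00000034664; chromosome 11, 102453297 to 102470122) encodes integrin αIIb, known as CD41, which marks megakaryocytes and some early progenitors. Control mice had 97.5, 62.8 and 97 CPM, and NPmut mice had 18.5, 7.98, 47.3 and 14.7 CPM. NPmut mouse 3 was well above the other NPmut mice but still under control mouse 2, so that the groups did not overlap. The mean in NPmut mice was 25.8% of that in control mice, with a log2 fold change of −1.96 (SE 0.48, 95% CI −3.01 to −0.9, adjusted p = 0.0243). This call was lost when single mice were left out, with an adjusted p of 0.0734 without control mouse 1, 0.0865 without control mouse 3, 0.0602 without NPmut mouse 1, 0.0507 without NPmut mouse 2 and 0.0582 without NPmut mouse 4. It was also lost without a filter (0.0778), with only the compared groups (0.0534) and with reads on receptor genes as a covariate (0.264). The log2 fold change with a mouse left out stayed between −1.88 and −1.67 where the call was lost, and over all 15 alternative settings the adjusted p ran from 0.000406 to 0.264.

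The alpha granule members Pf4 and Treml1 both fell, to 14.3% and 15.2% of the control mean. Pf4 (ENSMUSG00000029373; chromosome 5, 90772435 to 90773383) encodes platelet factor 4, a chemokine stored in the granules. It was at 16.5, 17.9 and 26.4 CPM in control mice and at 3.34, 2.08, 5.15 and 1.02 CPM in NPmut mice. The lowest control mouse had more than 3 times the level of the highest NPmut mouse. This gave a log2 fold change of −2.78 (SE 0.35, 95% CI −3.54 to −2.03, adjusted p = 0.000507), with a call in all 15 alternative settings.

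Treml1 (ENSMUSG00000023993; chromosome 17, 48359916 to 48367176) encodes TLT-1, a receptor held in alpha granules and brought to the surface on activation. Control mice were close together at 2.53, 2.53 and 2.34 CPM. NPmut mice were at 0.253, 0.231, 1.02 and 0 CPM, from 5, 6, 19 and 0 counts, and the 0 in NPmut mouse 4 allows up to 0.239 CPM of its total. The groups did not overlap, and NPmut mouse 3 was the highest NPmut mouse. The log2 fold change was −2.64 (SE 0.58, 95% CI −3.87 to −1.41, adjusted p = 0.00936). It was not called with only the compared groups in the fit (−2.64, adjusted p = 0.0641) or with reads on receptor genes as a covariate (−1.34, 0.364), and over its 14 alternative settings the adjusted p ran from 1.14e-06 to 0.364.

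The windows of Itga2b and Pf4 are shown as those of the members with the highest RPKM, and each holds an ETS word. The Itga2b window is chr11:102469834-102470133 on the minus strand and the Pf4 window chr5:90772185-90772484 on the plus strand, both RefSeq GRCm38.p6, with capitals as above. The RefSeq start of Itga2b lies 239 bases inside the gene as GENCODE has it, so that most of this window is within the gene, while the start of Pf4 is the same in both. In Pf4, the ETS word and the GATA word both lie after the start.
Itga2b: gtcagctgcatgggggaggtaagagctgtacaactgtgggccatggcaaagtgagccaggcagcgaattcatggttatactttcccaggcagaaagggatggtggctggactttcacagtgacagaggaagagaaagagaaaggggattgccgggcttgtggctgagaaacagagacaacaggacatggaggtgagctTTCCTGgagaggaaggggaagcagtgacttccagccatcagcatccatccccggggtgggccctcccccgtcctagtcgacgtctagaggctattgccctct
Pf4: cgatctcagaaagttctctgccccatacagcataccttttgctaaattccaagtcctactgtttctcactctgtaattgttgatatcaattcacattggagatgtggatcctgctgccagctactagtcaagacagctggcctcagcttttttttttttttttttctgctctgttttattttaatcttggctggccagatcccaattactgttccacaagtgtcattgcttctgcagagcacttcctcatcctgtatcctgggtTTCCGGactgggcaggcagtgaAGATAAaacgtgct

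Cavin2 and Trpc6, which act at the membrane and in calcium entry, had the lowest log2 fold changes of the members. Cavin2 (ENSMUSG00000045954; chromosome 1, 51289126 to 51302960) encodes a protein that shapes caveolae and binds phosphatidylserine. It was at 14.4, 9.08 and 16.7 CPM in control mice and at 1.42, 0.579, 2.04 and 0.0848 CPM in NPmut mice, the last from 1 count. The NPmut mice were all far below control mouse 2, the lowest control mouse. As a log2 fold change this was −3.65 (SE 0.47, 95% CI −4.66 to −2.63, adjusted p = 0.00053), and the NPmut mean was 7.68% of the control mean.

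Trpc6 (ENSMUSG00000031997; chromosome 9, 8544142 to 8680741) encodes a cation channel that admits calcium. Control mice had 8.51, 10.1 and 25.9 CPM, and NPmut mice had 1.36, 0.463, 0.912 and 0.17 CPM. Control mouse 3 stood apart from the other control mice, with 509 counts against 148 and 164, yet each control mouse was above each NPmut mouse. The log2 fold change was −4.29 (SE 0.57, 95% CI −5.53 to −3.06, adjusted p = 0.000662), the lowest of the members. Without control mouse 3 it was −3.61 and still called, and over its 14 alternative settings the adjusted p was at most 0.0277.

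The Cavin2 window is shown as that of the member with the lowest log2 value in the interaction. It is chr1:51288876-51289175 on the plus strand of RefSeq GRCm38.p6, with an ETS word in capitals.
Cavin2: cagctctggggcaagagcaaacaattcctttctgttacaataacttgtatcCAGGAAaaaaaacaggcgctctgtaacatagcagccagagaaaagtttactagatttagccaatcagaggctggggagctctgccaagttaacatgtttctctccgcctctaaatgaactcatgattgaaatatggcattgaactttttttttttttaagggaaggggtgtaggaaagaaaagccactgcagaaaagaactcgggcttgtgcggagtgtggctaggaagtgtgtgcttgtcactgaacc

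Counted together, 8 of the 8 tested members were called lower in NPmut than in control HSPCs. Of all 17795 genes tested, 656 were called lower (3.69%) and 413 higher (2.32%). The median log2 fold change was −2.8 over the tested members and 0.01 over all genes. When the libraries were scaled by their totals alone, the median over all genes moved to −0.11, with 788 genes lower and 310 higher, and the median over the members to −2.91. Every NPmut mouse was below every control mouse in 8 of the 8 tested members, and in 11.5% of all genes tested. Every NPmut mouse was also below each of the 9 other mice in these 8 members, against 4.88% of all genes. Without control mouse 3, 6 members were called, and 369 genes were called lower. Of the members, Gp9, Pf4 and Treml1 stand on a list of lower genes that the study drew up in part from these libraries. All 8 tested members were measured in the libraries that the study analysed, and members were chosen with earlier results of these data known. For none of them is the direction independent evidence.

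The spread among the mice of a group in the members was widest in NPmut. The SD of log2 CPM had a median of 0.988 over the 8 tested members in NPmut mice, against 0.363 in control, 0.416 in p53mut and 0.177 in NrasG12D mice. Over all genes tested, the median SD was also highest in NPmut, at 0.351 against 0.196 in control, 0.215 in p53mut and 0.208 in NrasG12D mice. The widest member values, Cavin2 (1.52) and Treml1 (1.34) in NPmut, rest on 1 and 0 counts in NPmut mouse 4, and counting error was not taken out of these SDs. NPmut mouse 3 was the highest of its group in 7 members, and Trpc6, in which NPmut mouse 1 was highest, was the exception. NPmut mouse 2 was the lowest of all 13 mice in 4 members and NPmut mouse 4 in the other 4. Summed over the 9 members, the level was 32.6, 14.7, 68.4 and 22.6 CPM in NPmut mice and 183, 148 and 232 CPM in control mice.

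**Figure D2:**
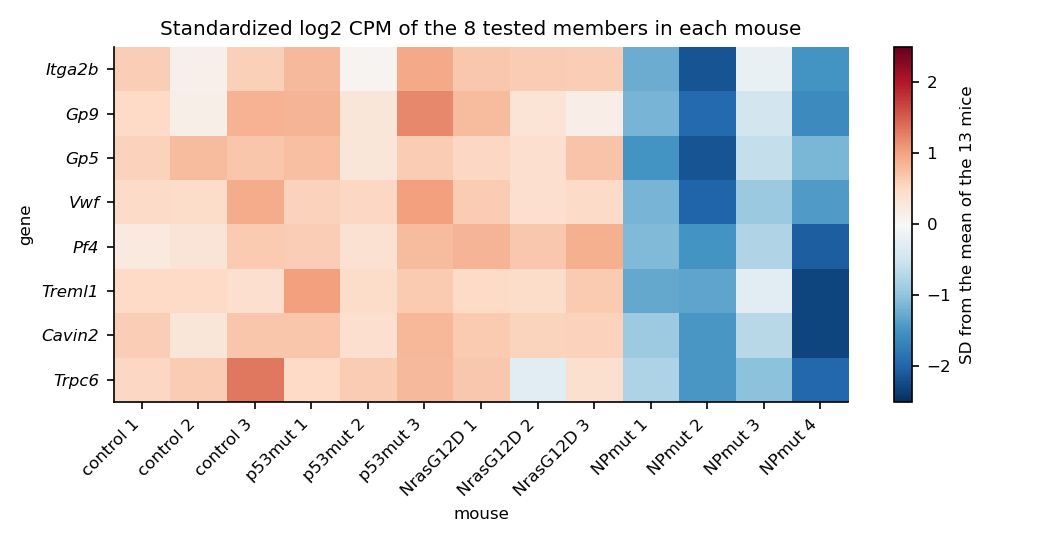
Log2 CPM of the 8 tested members in each of the 13 mice, as SD from the mean of that gene. The 4 NPmut mice are the lowest in each gene, and NPmut mouse 3 is the least low of them in 7 of the 8.

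Against the single mutants, which asks how the double mutant differs from each allele alone, NPmut HSPCs were lower in the same 8 members. In NrasG12D mice, Pf4 was at 32.8, 27 and 34.8 CPM and Cavin2 at 15.6, 13.4 and 13.8 CPM, all far above the NPmut mice. Against NrasG12D, 8 of 8 tested members were called lower, with 2.6% of all genes, and their median log2 fold change was −2.74 (0.04 over all genes). The values ran from −3.74 in Cavin2 (SE 0.47, adjusted p = 0.000587) and −3.41 in Pf4 (SE 0.35, adjusted p = 0.000149) to −1.7 in Gp9 (SE 0.38, adjusted p = 0.0117). Without NrasG12D mouse 1, Gp9 (adjusted p = 0.0638) and Itga2b (0.0562) were not called, and Itga2b was not called without NrasG12D mouse 2 (0.0571) or 3 (0.0508). With only the compared groups, 6 members were called, without Gp9 (adjusted p = 0.0571) and Treml1 (0.0674), and without a filter Itga2b was not called (0.0607). Of all genes, 463 were called lower, and 289 without NrasG12D mouse 2 or 301 without NrasG12D mouse 1. Over the alternative settings, the adjusted p ran from 0.000414 to 0.0638 for Gp9 and from 0.00029 to 0.0607 for Itga2b, and was at most 0.0674 for Treml1.

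In p53mut mice, Vwf was at 33.1, 31 and 52.1 CPM and Cavin2 at 16.4, 11.1 and 19.9 CPM, again with no overlap with the NPmut mice. Against p53mut, 8 of 8 tested members were called lower, with 3.1% of all genes, and the median log2 fold change was −3.07 (0.03 over all genes). The lowest values were −3.88 in Cavin2 (SE 0.47, adjusted p = 0.000468) and −3.8 in Trpc6 (SE 0.57, adjusted p = 0.00153), and Gp9 had the highest at −2.07 (SE 0.37, adjusted p = 0.0033). Itga2b was not called without p53mut mouse 1 (adjusted p = 0.052) or p53mut mouse 3 (0.0687), nor without a filter (0.0546), within a range of 0.000266 to 0.125 over its alternative settings. Of all genes, 551 were called lower, and 264 without p53mut mouse 3. These comparisons share the 4 NPmut libraries, and those with control share the control libraries, so that they are not independent of each other.

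**Figure D3:**
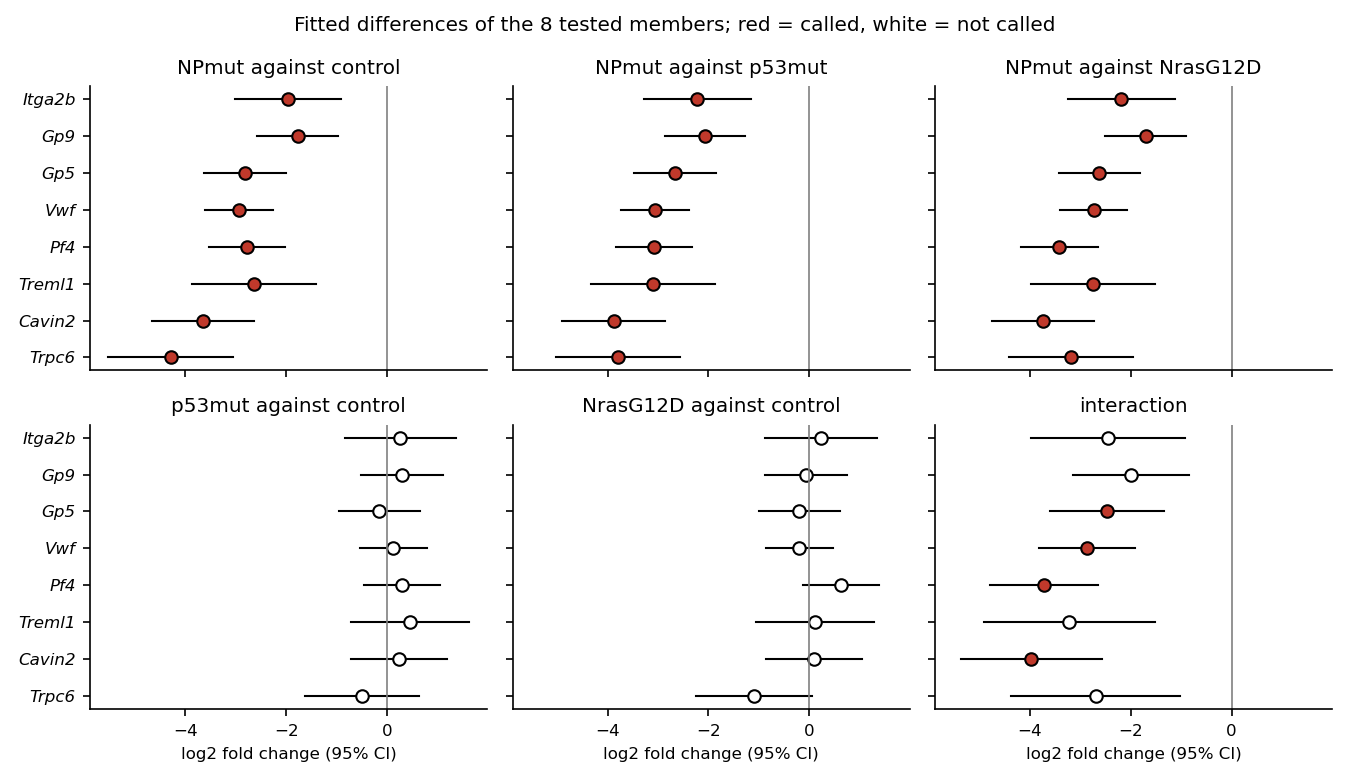
Log2 fold change of the 8 tested members (points) with 95% CI (lines) in 6 comparisons, with called members in red. All 8 are red and negative where NPmut is compared with another group, none is red in p53mut or NrasG12D against control, and 4 are red in the interaction.

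Neither single mutant differed from control in a called member. For p53mut, the question is what mutant p53 does alone, and the members had a median log2 fold change of 0.25 (0 over all genes to 2 decimals). Itga2b was at 117, 60.1 and 132 CPM and Pf4 at 25.2, 19.2 and 30.6 CPM, ranges that overlap those of control mice. p53mut mouse 3 was the highest of all 13 mice in 4 members and p53mut mouse 2 the lowest of its group in 7. By edgeR, 0 of 8 members were called, with 0% of all genes, 0 members had an unadjusted p under 0.05, and DESeq2 also called 0. Of all genes, 415 had an unadjusted p under 0.05 and DESeq2 called 2. The widest interval was that of Treml1, at 0.46 with a 95% CI of −0.71 to 1.64, and for Vwf it was −0.54 to 0.8 around 0.13. The intervals here and for NrasG12D rest on a spread estimated from all 13 libraries, including the more variable NPmut mice. For Treml1, the SD of log2 CPM was 1.34 in NPmut, against 0.0606 in control and 0.469 in p53mut mice. Such intervals therefore do not measure the spread among the compared mice alone. With control and p53mut mice alone, paired by replicate number, 0 members were called, and 21 genes were called lower and 4 higher of 16685 tested.

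For NrasG12D, the question is what oncogenic NRAS does alone. Pf4 was at 32.8, 27 and 34.8 CPM, each above the highest control mouse, with a log2 fold change of 0.63 (SE 0.35, 95% CI −0.12 to 1.38, adjusted p = 0.638). Trpc6 was at 10.7, 2.82 and 7.25 CPM, with a log2 fold change of −1.1 (SE 0.53, 95% CI −2.25 to 0.05, adjusted p = 0.565). NrasG12D mouse 2, with 43 counts, was the low mouse for Trpc6, and the group overlapped control. With single mice left out, the Trpc6 value ran from −1.56 to −0.43, the latter without control mouse 3. The other members had log2 fold changes between −0.2 (Gp5) and 0.23 (Itga2b). By edgeR, 0 of 8 members were called, 0 had an unadjusted p under 0.05, and DESeq2 also called 0. Of all genes, 0.00562% were called, which is the single gene H2-Q6, while 1642 had an unadjusted p under 0.05 and DESeq2 called 74. The median log2 fold change was 0.01 over the members and −0.01 over all genes.

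The interaction asks whether NPmut departs from the sum of both single-mutant differences on the log2 scale, and it was negative in each of the 8 tested members. It was called in 4 of them, against 0.938% of all genes called negative, which is 167 genes, and 55 (without control mouse 2) to 327 (without NPmut mouse 3) with single mice left out. These 4 were Cavin2 at −3.97 (SE 0.65, adjusted p = 0.0109), Pf4 at −3.72 (SE 0.5, adjusted p = 0.00323), Vwf at −2.86 (SE 0.44, adjusted p = 0.00766) and Gp5 at −2.47 (SE 0.53, adjusted p = 0.0361). For Pf4, the means behind this were 20.3 CPM in control, 25 in p53mut, 31.5 in NrasG12D and 2.9 in NPmut mice. The values of the others were −3.22 for Treml1 (adjusted p = 0.0563), −2.7 for Trpc6 (0.0979), −2.45 for Itga2b (0.106) and −2 for Gp9 (0.0712), and the median was −2.78 (0.05 over all genes). Without NPmut mouse 3, 7 members were called, with Itga2b at −3.15 (adjusted p = 0.00345), Gp9 at −2.38 (0.0193) and Treml1 at −4.28 (0.00427). Without NPmut mouse 4, Treml1 was called at −2.92 (adjusted p = 0.044). With the replicate number as a block, 6 members were called, with Gp9 at −1.97 (adjusted p = 0.0403) and Treml1 at −2.93 (0.0273) among them, and 231 of all genes were called negative. DESeq2 and the fit without a filter each called 7, with 359 and 343 of all genes negative. Gp5 was not called in 9 fits that each left out a mouse, namely any control mouse, p53mut mouse 1 or 3, any NrasG12D mouse or NPmut mouse 1, with log2 values of −2.56 to −2.34 there. Over all alternative settings, its adjusted p ran from 6.42e-08 to 0.104, that of Itga2b from 0.00345 to 0.258, that of Gp9 from 0.011 to 0.201, that of Treml1 from 7.87e-05 to 0.156 and that of Trpc6 from 0.0255 to 0.234.

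Beyond the 9 members, 88 further genes of platelets and of the megakaryocyte lineage were sorted by role into 6 lists, and 79 of them were tested. In NPmut against control, 25 were called lower, 3 higher and 51 not called, with a median log2 fold change of −0.66. Over all genes tested, which is the measure to set beside each list, 3.69% were called lower and 2.32% higher, with a median of 0.01. The genes that fell were spread over all 6 lists. Summed over the 88 genes, the level was 9160 to 10100 CPM in NPmut mice and 9140 to 10500 CPM in the other 9, so that these sums overlapped. The most abundant of these genes was Myh9, at means of 1390 CPM in control and 1580 CPM in NPmut mice. Genes at a few CPM weigh little in this sum, so that it cannot show a fall limited to them. By list, the sum of the agonist receptors was 29.5 to 73.8 CPM in NPmut mice and 104 to 170 CPM in the other 9, and that of the transcription factors 1300 to 1810 and 1960 to 2470 CPM. F2r was the most abundant agonist receptor gene, at means of 50.3 CPM in control and 12.2 CPM in NPmut mice, and so made up much of that difference. The granule list, led by F13a1, was higher in NPmut mice, at 1610 to 2090 CPM against 899 to 1430. Without F13a1 the other 15 genes of that list summed to 642 to 903 CPM in NPmut mice and 670 to 872 CPM in the other 9, so that the groups overlapped. With F13a1 included, the 3 sums came to 37.5%, 75.9% and 157% of the control mean, and the sums of the 3 other lists overlapped. With only NPmut and control in the fit, 16 were called lower, and 6 with the receptor gene covariate. Several genes of these lists, among them Selp, Mmrn1, Slc18a2, F2rl2, Prkg1, Pde5a, Nrgn, Tuba8 and Meis1, are on the study's own list of lower genes. All genes of the 6 lists were measured in the same libraries, and the lists were chosen with earlier results of these data known. For none of these genes is the direction independent evidence.

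Of the adhesion receptors, 4 of 12 tested genes fell and 0 rose (median −0.8). Gp1ba, whose product is the part of the glycoprotein Ib-IX-V complex that binds von Willebrand factor, was at 10.1 to 12.1 CPM in control mice and 0.501 to 2.95 CPM in NPmut mice. It fell by 3.14 on the log2 scale (SE 0.41, adjusted p = 0.000507). Esam, an adhesion molecule of endothelial cells, platelets and stem cells, was at −2.78 (adjusted p = 0.00507), Pear1 at −1.38 (0.0386) and Itga2, the collagen-binding integrin α2, at −1.36 (0.0139). Without control mouse 1, Itga2 was not called (adjusted p = 0.0935), and Pear1 was lost in each fit without control mouse 1 or 3 or NPmut mouse 1, 2 or 4 (adjusted p of 0.0698 to 0.148). With reads on receptor genes as a covariate, Gp1ba was also not called (−2.46, adjusted p = 0.0541), and Esam was. Over all alternative settings, the adjusted p ran from 0.00158 to 0.0935 for Itga2 and from 0.00372 to 0.179 for Pear1. Itgb3, the partner of Itga2b in the integrin αIIbβ3, was at 21.8 to 33.5 CPM in control and 20.6 to 29.6 CPM in NPmut mice. This was a log2 difference of −0.02 (SE 0.19, adjusted p = 0.956), in contrast to the fall of Itga2b, although the difference between both genes was not tested.

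Of the genes for granule contents and granule formation, 5 of 14 tested genes fell and 1 rose (median −0.63). Mmrn1, which encodes multimerin 1, a carrier of factor V in alpha granules, was at 19.1 to 30.7 CPM in control and 0.763 to 5.52 CPM in NPmut mice, a fall of 3.24 on the log2 scale (SE 0.45, adjusted p = 0.000924). Slc18a2, a monoamine transporter of dense granules, was at −2.8 (adjusted p = 0.00545) and Selp, the gene of P-selectin, at −1.43 (0.00513). Rab27b and Slc35d3, which serve dense granules, were the other genes that fell. F13a1, for a factor XIII subunit that monocytes also make, was at 321 to 389 CPM in control and 903 to 1188 CPM in NPmut mice, and rose by 1.58 on the log2 scale (SE 0.23, adjusted p = 0.000877). With reads on receptor genes as a covariate, Mmrn1 (−3.08, adjusted p = 0.0623), Slc18a2 (−2.75, 0.113) and Selp (−1.4, 0.107) were not called. These were the highest adjusted p of each over its alternative settings. Thbs1, the gene of thrombospondin 1, ranged from 3.1 to 177 CPM among control mice and was not called (−1.25, SE 1.69, adjusted p = 0.699).

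Of the agonist receptors, 3 of 9 tested genes fell and 1 rose (median −0.91). F2rl2, a thrombin receptor gene, was at 3.33 to 3.72 CPM in control and 0 to 0.751 CPM in NPmut mice, and fell by 3.45 on the log2 scale (SE 0.55, adjusted p = 0.0014). F2r, another thrombin receptor gene, was at −2.04 (adjusted p = 0.0271). Ptgir, the prostacyclin receptor gene, was at 1.1 (adjusted p = 0.0397). The calls of F2r and Ptgir were lost when single mice were left out. F2r was lost without any control mouse or NPmut mouse 1, 2 or 4 (adjusted p of 0.0506 to 0.0908), and Ptgir without any control mouse or NPmut mouse 1 or 4 (0.0509 to 0.153). Over all alternative settings, these ranges were 0.000229 to 0.343 for F2r and 0.0206 to 0.697 for Ptgir. F2rl2 was not called with reads on receptor genes as a covariate (−2.96, adjusted p = 0.0777, its highest over 14 alternative settings). P2ry12, the ADP receptor gene, had at most 8 counts in any mouse and was not tested.

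Of the signalling genes and enzymes, 4 of 17 tested genes fell and 0 rose (median −0.12). Prkg1, the gene of a cGMP-dependent kinase, was at −2.41 (SE 0.42, adjusted p = 0.00273), Pde5a, a cGMP phosphodiesterase gene, at −2.31 (SE 0.22, adjusted p = 5.48e-05), Nrgn, the neurogranin gene, at −1.67 (adjusted p = 0.00206) and Mylk, the myosin light chain kinase gene, at −1.64 (0.0182). Mylk was not called without control mouse 2 (−1.36, adjusted p = 0.0934, range over its alternative settings 0.000207 to 0.473). With reads on receptor genes as a covariate, Prkg1 (−2.361, adjusted p = 0.085), Nrgn (−1.315, 0.121) and Mylk (−0.8062, 0.473) were not called, and Pde5a was. Of the cytoskeleton and platelet release genes, 2 of 11 tested genes fell and 1 rose (median 0.19). Cavin1, which acts with Cavin2 in caveolae, was at 17 to 26.3 CPM in control and 2.04 to 5.9 CPM in NPmut mice, and fell by 2.55 on the log2 scale (SE 0.29, adjusted p = 0.000169). Tuba8, a tubulin gene, was at −1.5 (adjusted p = 0.000492), and Tpm4, a tropomyosin gene, was at 16.8 to 24.4 CPM in control and 60.3 to 132 CPM in NPmut mice, and rose by 2.12 on the log2 scale (SE 0.25, adjusted p = 0.000329).

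Of the 16 transcription factors of the lineage, 16 were tested, 7 fell and 0 rose (median −0.28). Gata1, which drives erythroid and megakaryocyte genes, was at 41.9 to 57.7 CPM in control and 4.36 to 24.6 CPM in NPmut mice, and fell by 1.8 on the log2 scale (SE 0.43, adjusted p = 0.0194). Gata2, a factor of stem and progenitor cells, was at −1.64 (adjusted p = 0.0142), Tal1 at −1.26 (0.00511) and Gfi1b at −1.41 (0.0463). Gata1 was not called without control mouse 2 or 3 or NPmut mouse 1 (adjusted p of 0.0558 to 0.0757), Gata2 without control mouse 3 (0.065), and Gfi1b without any control mouse or NPmut mouse 1 (0.0681 to 0.17). Over all alternative settings, the adjusted p ran from 0.00456 to 0.171 for Gata1, 0.000424 to 0.197 for Gata2 and 0.00968 to 0.17 for Gfi1b. Tal1 was lost only with reads on receptor genes as a covariate (−1.35, adjusted p = 0.104). Fli1, Runx1 and Nfe2, factors that megakaryocytes share with other blood cells, had log2 fold changes of 0.01 (SE 0.1), −0.01 (SE 0.16) and −0.12 (SE 0.1). Fli1 was at 106 to 134 CPM in control and 113 to 124 CPM in NPmut mice, so that these groups overlapped.

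**Figure D4:**
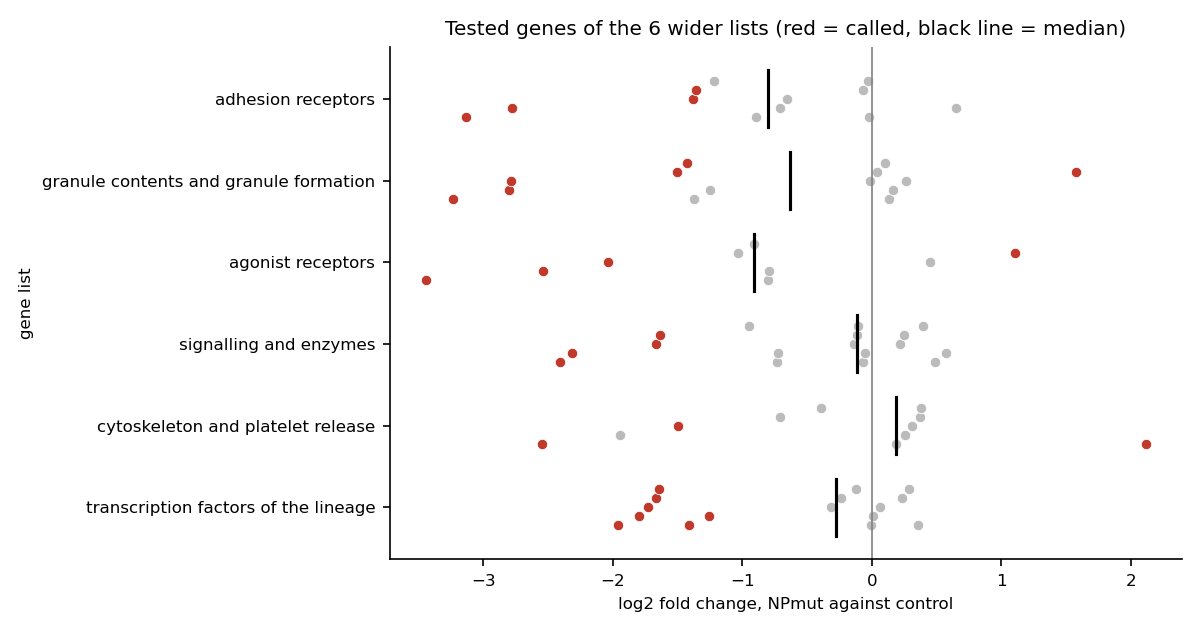
Log2 fold change in NPmut against control for each tested gene (points) of the 6 lists, with called genes in red and the list median as a black line. Each list has red points on the negative side, and the medians lie between −0.91 (agonist receptors) and 0.19 (cytoskeleton and platelet release).

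In the single mutants, 0 of the 79 genes were called by edgeR against control. For p53mut, 1 had an unadjusted p under 0.05 and DESeq2 called 0, and for NrasG12D these numbers were 13 and 0. Over all 17795 genes tested by edgeR, 415 had an unadjusted p under 0.05 for p53mut and 1642 for NrasG12D. DESeq2 called 2 and 74 of all genes. NPmut was called lower in 25 and higher in 2 of the 79 against NrasG12D, and lower in 28 and higher in 2 against p53mut. Of all 17795 genes tested, 463 were called lower and 322 higher against NrasG12D, and 551 and 382 against p53mut. The interaction was called negative in 14 and positive in 1, F13a1 (1.46). Of all genes tested, it was called negative in 167 (0.938%) and positive in 72.

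Markers of other cells that the sorted fraction could hold were summed in each library, and several sums moved with the members. The 12 HSC markers, of which 11 were tested and 8 called lower, summed to 187, 143 and 212 CPM in control, 174, 125 and 229 in p53mut, 186, 155 and 171 in NrasG12D and 72, 37.6, 89.8 and 59.5 in NPmut mice. By CPM, Hlf was the most abundant of them, at a mean of 55.5 CPM in control and 18.8 CPM in NPmut mice. The 12 erythroid markers, all tested, with 2 called lower (Klf1 and Car2), summed to 981, 1410 and 1460 CPM in control, 1190, 1050 and 1660 in p53mut, 1120, 989 and 920 in NrasG12D and 538, 351, 839 and 892 in NPmut mice. Car2 was the most abundant, at 435 CPM in control and 169.6 CPM in NPmut mice. In both lists every NPmut mouse was below each of the 9 other mice, as in the members. Their part in the fall of the members was not tested.

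Endothelial cells also express Vwf. Of their 13 markers, 7 were tested and 5 called lower (Kdr, Emcn, Plvap, Tek and Tie1), and several of these are also active in stem cells. Their sum was 133, 130 and 141 CPM in control, 135, 120 and 189 in p53mut, 144, 178 and 137 in NrasG12D and 71.8, 60, 86.4 and 57.1 in NPmut mice, with Eng the most abundant (80.2 CPM in control, 49.2 in NPmut). Of the markers too low to be tested, Cldn5 had 0 counts in all control and NrasG12D mice, Sox17 in all p53mut and Sox18 in all NrasG12D mice, with at most 6 counts of any of these in a mouse. Cdh5, Stab2 and Mmrn2 were also too low to be tested. The part of endothelial cells in the level of Vwf was not tested.

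Mast cells and basophils had 9 markers, 7 tested, and 1 called lower (Fcer1a). They summed to 130, 94.8 and 110 CPM in control, 125, 130 and 113 in p53mut, 144, 166 and 144 in NrasG12D and 74.1, 72, 104 and 83.4 in NPmut mice, with Hdc the most abundant (60.7 and 48.7 CPM in control and NPmut) and Tpsb2 at 0 counts in all p53mut and NrasG12D mice. The sum of the 5 HSPC markers, with 0 called lower and 1 higher (Flt3), was 1120, 898 and 955 CPM in control, 1120, 975 and 1240 in p53mut, 1190, 1400 and 1140 in NrasG12D and 939, 901, 1140 and 751 in NPmut mice, and these groups overlapped. Among them, Kit itself had a log2 fold change of −0.54 in NPmut against control (SE 0.15, adjusted p = 0.0322), which is under the size needed for a call.

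Markers of monocytes and macrophages moved the other way. Of 10, all tested, 5 rose (Csf1r, Ccr2, Ly86, Cd68 and Irf8), and the sum was 380, 342 and 329 CPM in control, 323, 474 and 269 in p53mut, 341, 429 and 454 in NrasG12D and 1080, 1480, 805 and 841 in NPmut mice, with Irf8 the most abundant (135 CPM in control, 485 in NPmut). The 10 neutrophil and GMP markers, 0 called by edgeR, were led by Mpo (10800 and 13200 CPM in control and NPmut) and summed to 12800, 14700 and 11800 CPM in control, 10100, 18200 and 9170 in p53mut, 10200, 10600 and 14800 in NrasG12D and 14900, 23100, 14200 and 13700 in NPmut mice. The 8 B lymphoid markers (6 tested, 0 called, Cd79b the most abundant) summed to 13.4 to 19.6 CPM in control and 15.4 to 29.3 CPM in NPmut mice, and the 8 T and NK markers (3 tested, 0 called, Lck the most abundant) to 3.57 to 7.41 and 4.16 to 13.1 CPM. The part of these cells in the members' levels was not tested.

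**Figure D5:**
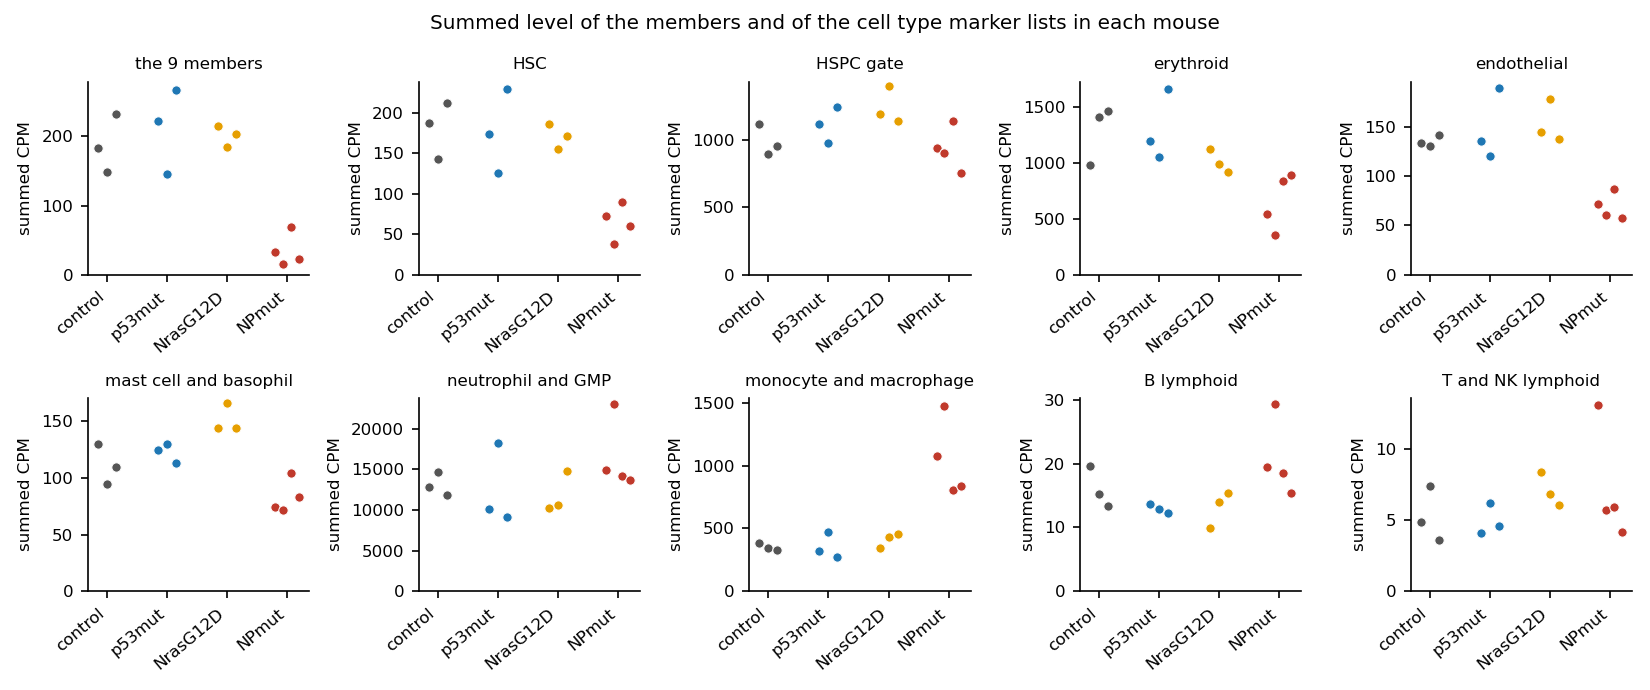
Summed CPM of the 9 members and of each marker list in each mouse (points). The NPmut mice are below the 9 others for the members, HSC, erythroid and endothelial lists and above them for the monocyte and macrophage list.

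Reads on 1461 olfactory and vomeronasal receptor genes, which these cells are not known to use, served as a measure of background, and they also moved with the groups. As CPM of the library totals, they came to 133, 191 and 103 in control, 99.6, 138 and 58.9 in p53mut, 44.4, 37.8 and 42.2 in NrasG12D and 17.6, 46.6, 57.3 and 17.5 in NPmut libraries. At that density per kilobase, background would make up at most 1.42% of the control counts of a tested member (Treml1) and at most 4.83% of its NPmut counts (Trpc6). Control and NPmut libraries did not overlap in this measure, so that a fit with it as a covariate cannot well separate background from group. With this measure as a covariate, 4 of the 8 tested members were called in NPmut against control, namely Vwf, Pf4, Cavin2 and Trpc6. The median log2 fold change of the members was −2.57 in that fit, against −2.8 without the covariate. The others were at −2.51 for Gp5 (adjusted p = 0.0527), −1.93 for Gp9 (0.0957), −1.68 for Itga2b (0.264) and −1.34 for Treml1 (0.364). The fit with the covariate called 252 of all genes lower. In the same fit, 8 of 8 tested members were called against NrasG12D, with 499 of all genes lower. Against p53mut it called 6, without Itga2b (adjusted p = 0.125) and Treml1 (0.0764), with 313 of all genes lower. 

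Of 12846 tested genes that are on none of the lists and average 1 or more in log2 CPM, those whose log2 CPM over the 13 libraries was most like the mean standardized profile of the tested members were Nol4l (Pearson r = 0.983), Fam171a1 (0.98), Tnik (0.978), Rusc2 (0.976), Cplx2 (0.974), Arhgef5 (0.974), Csgalnact1 (0.973) and Zfp462 (0.972). The libraries differ in group and in depth, and r mainly sets NPmut against the rest, so that it is given as a description. Tnik averaged 65.7 CPM in control and 14 CPM in NPmut mice, and the log2 fold changes of these 8 genes lay between −3.07 (Csgalnact1) and −1.13 (Fam171a1). The member profile was low in NPmut mice, so that negative values in genes picked for likeness to it follow from the choice. Their fold changes and calls are likewise given as a description. Without NPmut mouse 2, Fam171a1 was at −0.9966 and so not called. With reads on receptor genes as a covariate, 7 of the 8 were not called (adjusted p of 0.05003 to 0.188), and only Zfp462 was. The log2 fold changes of these 7 genes ran from −2.775 (Csgalnact1) to −0.8967 (Fam171a1) there.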

How the data were processed

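RNA-Seq of 13 libraries (3 control, 3 p53mut, 3 NrasG12D, 4 NPmut), 1 per mouse, was prepared with a stranded total RNA kit for small inputs. The values are raw read counts per gene, as the authors deposited them, for 54838 Ensembl identifiers. The labels name STAR 2.6.1d, R 3.6.1, DESeq2 1.26.0 and GRCm38.p6, but neither the counter, the annotation nor the strand setting. GENCODE M21 gave symbols, lengths and coordinates for 54809 identifiers.

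Tests used edgeR 4.0.16 under R 4.3.3. A robust quasi-likelihood model with 1 coefficient per group was fitted to the 13 libraries, after TMM scaling and filterByExpr, which kept 17795 of 44944 genes with at least 1 count. The 6 contrasts were tested, each adjusted over all 17795 genes by Benjamini-Hochberg. The interaction is NPmut minus p53mut minus NrasG12D plus control. SE is the size of the log2 fold change over the root of its F statistic. CPM (from TMM-scaled sizes of the tested genes), RPKM (from library totals) and log2 CPM (prior count 2) were computed here. Totals ran from 12576174 to 29124022 counts, so that members with few counts are measured imprecisely. Floors (3 counts) cover counting error only.

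Named genes are the 9 members, their listed partners, for each list the 2 called genes with the lowest and the 2 with the highest log2 fold change, the 8 genes most like the members in profile, the most abundant marker of each cell type and markers at 0. Rab27b, Slc35d3, H2-Q6 and the markers named because they were called or could not be tested are outside this rule and were named after their values were seen. Members and lists were chosen with earlier results of these data known.

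Alternatives were RLE factors, library totals, DESeq2 1.42.0, other filters, the replicate number as a block, receptor gene reads as a covariate, only the compared groups, and each mouse left out. In control and p53mut, deviations from group means correlated between same-numbered mice in all 3 pairs (r = 0.166, 0.163 and 0.152), and a fit to these 6 libraries with that number as a block was added after seeing the data. The labels do not say what the number stands for. The procedure was tested on simulated data. Figures were drawn with Python 3.11.15 and matplotlib 3.10.9. Promoters are from RefSeq.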

Additional observations from a re-analysis of the deposited data

Results flagged for a closer look

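The interaction, a test of whether the NrasG12D difference is the same with and without mutant p53, was past the threshold in 4 members. The log2 value was −3.973 in Cavin2, −3.717 in Pf4, −2.864 in Vwf and −2.473 in Gp5. In each, NPmut mice were below the sum of both single-mutant differences. The groups differ also in pI-pC injection and stage of disease, which cannot be told apart from genotype. By Dixon's ratio of gap to range, no NPmut mouse passed the critical value, and the highest ratio among the 8 tested members was 0.752 in Treml1.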

How the results depend on the processing

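Direction was kept throughout: in NPmut against each other group and in the interaction, 8 of 8 tested members were negative under RLE factors, library totals, the replicate block, the receptor gene covariate and each mouse left out. The number called lower against control, 8, was 8 with RLE factors, library totals, DESeq2 and the replicate block, 7 without a filter, 6 with only the compared groups, 6 to 8 with each mouse left out, 4 with the receptor gene covariate and 4 with at least 10 counts required in every library, where only 4 members were tested. That filter also gave 4 against NrasG12D and 4 against p53mut, and leaving out mice gave 6 to 8 and 7 to 8. In the interaction, 4 became 7 with DESeq2, 7 without a filter, 6 with the replicate block, 5 with the covariate, 3 with at least 10 counts in every library (4 members tested) and 3 to 7 with each mouse left out. In p53mut and NrasG12D against control, 0 members were called in every setting run. Over all genes, p53mut gave 21 lower and 4 higher when paired with control and 7 and 2 without a filter, and NrasG12D gave 5 and 23 with the replicate block, 39 and 42 with only the compared groups and 93 and 66 without a filter. Of the wider lists, 25 lower genes became 6 with the covariate, 16 with only the compared groups and 17 to 28 with each mouse left out. In NPmut against control, 656 lower genes became 1026 without a filter, 320 with at least 10 counts in every library, 252 with the covariate, 346 with only the compared groups, and 369 to 758 with each mouse left out. Among single genes, 887 values kept their side of the threshold, 104 lost a call, 13 gained a call and 0 turned direction with a call.

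The groups hold 3 or 4 mice, and NPmut mice had no pI-pC and were moribund. Gp9, Treml1, Cavin2 and Trpc6 had under 10 counts in NPmut mouse 4, so that their levels there are imprecise. The counts do not separate cell number from RNA per cell, and the strand setting of the counting is not known.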
